A study of Mus musculus with 4 samples.

Results

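The genes described here are 31 markers of microglia and other myeloid cells, taken as the entries of the deposited count table whose gene name equals a name on a fixed list. All 31 were found, each as 1 of the 45703 genes of the table. The series consists of 4 poly-A RNA-seq libraries of cultured cortical astrocytes, numbered 1 to 4 as in the labels, and these form 1 group with no contrast. The cells were taken at postnatal day 4 from the frontal cortex of outbred CD-1 mice, reseeded at day 6 in vitro and harvested 3 days after that, following 1 h without serum. The glial cells were grown with serum, B27 and EGF, and no sorting or depletion step and no genetic change is named in the labels. The number of mice per culture and any separate preparation are details not given in the sources used here, so that SDs measure the spread between these 4 libraries only, which may be technical.

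Microglia are the resident macrophages of the brain. They descend from yolk sac progenitors rather than from the neural lineage that gives rise to astrocytes, and they depend on signalling through the CSF1 receptor for their survival. The transcription factor PU.1, the product of Spi1, sets up the myeloid programme, while SALL1 and signals of the brain environment maintain the features that separate resting microglia from other macrophages. Dissociated cortical tissue holds microglia beside astrocytes, and mixed glial cultures are a standard source of both.

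The libraries held 37300485 to 42369109 counts, so that 1 count was 0.0236 to 0.0268 CPM (counts per 1000000 counts of a library). All 12 astrocyte markers looked at had 1 CPM or more throughout, as 58.1% of protein-coding genes did, with a summed level of 8128 to 9155 CPM. The sum was 2936 to 3222 CPM for 8 mural cell markers, mostly from Acta2 and Tagln (means of 1929 and 1019 CPM). For 10 oligodendrocyte lineage markers it was 1548 to 1701 CPM, mostly from Olig1 and Olig2 (means of 1310 and 240.9 CPM). In these lists 5 and 6 genes reached 1 CPM throughout, as 58.1% of protein-coding genes did. Myh11, Kcnj8 and Abcc9 averaged 0.64, 0.06 and 0.09 CPM, and Sox10, Mog and Gpr17 had 9, 1 and 2 counts in all. These sums do not measure the purity of the cultures. Culture 4 stood apart from cultures 1 to 3 across the whole table. Of 15217 genes averaging 1 CPM or more, 12.2% were at least 20% lower in culture 4 than the mean of the other 3 cultures and 10.1% at least 25% higher (the same fold in either direction). For cultures 1, 2 and 3 the shares were 2.69%, 2.21% and 2.65% lower and 1.97%, 2.39% and 3% higher. Each result below is therefore given by culture.

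Members of the list were present at low to moderate levels. Of the 31 genes, 26 reached 1 CPM in all 4 libraries, against 32.2% of all genes and 58.1% of protein-coding genes. The 5 others were Fcrls, Tmem119, Gpr34, Cd48 and Siglech. The summed level of all 31 genes was 481.3, 495.3, 503.9 and 412.1 CPM in cultures 1 to 4, with a mean of 473.2 ± 41.8 CPM (SD, n = 4) or 0.0473% of the counts. Lyz2 and Sall1 made up a large part of that sum. Without them the sum was 277.8, 291.2 and 298.6 CPM in cultures 1 to 3 and 195.6 CPM in culture 4. In bulk RNA, fewer cells of a type and less RNA of that type per cell cannot be told apart.

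**Figure D1:**
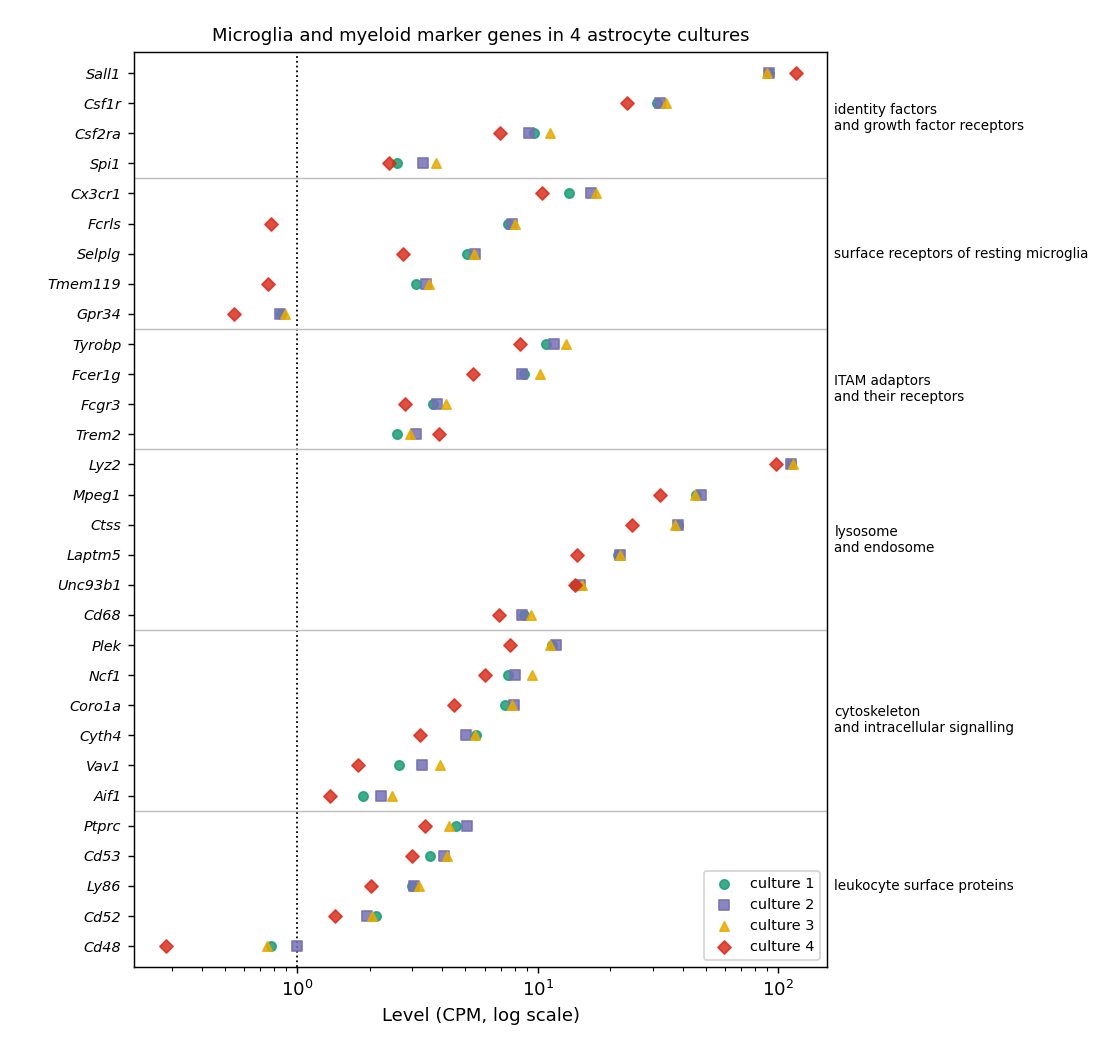
Level of 30 members in each culture, in CPM on a log axis, grouped by role; each symbol is 1 library and the dotted line is 1 CPM. Siglech, with no count in culture 3, is not drawn. In most lines the culture 4 symbol lies to the left of the other 3, with Fcrls and Tmem119 farthest from them and Sall1 and Trem2 on the opposite side.

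On a per-length scale Lyz2, which encodes lysozyme M, was the most abundant member, at 103.7 ± 7.28 RPKM (CPM per kilobase of combined exon length; n = 4). It was followed by Ctss at 23.9 ± 4.65 RPKM, Tyrobp at 19.1 ± 3.40 RPKM, Sall1 at 17.1 ± 2.39 RPKM and Fcer1g at 12.5 ± 3.07 RPKM. From Mpeg1, at 9.80 ± 1.62 RPKM, the levels declined to 0.41 RPKM for Cd48, with steps between neighbours that were mostly within the spread of the libraries. Of the 30 pairs of neighbours in this order, only 5 had values that did not overlap between the 2 genes over the 4 libraries, namely Lyz2 above Ctss, Sall1 above Fcer1g, Unc93b1 above Cx3cr1, Cd48 above Gpr34 and Gpr34 above Siglech. Without culture 4 the number was 16. An exact two-sided paired permutation test over 4 libraries cannot give a p below 1 in 8, and none was run for this order. Some places depended on the gene model. With GENCODE transcript lengths Csf2ra moved from 0.98 to 5.12 RPKM, Fcgr3 from 1.24 to 2.71 RPKM and Gpr34 from 0.095 to 0.392 RPKM.

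RefSeq promoter windows were searched for the purine-rich word that PU.1 is known to bind, GAGGAA, on both strands of the 250 bases before a transcript start. Windows were found for 23 of the 31 members, and the members without an entry were Tmem119, Selplg, Spi1, Unc93b1, Csf1r, Cd52, Tyrobp and Gpr34. The word occurred in 13 of 28 windows of members (46.4%), from 12 genes, against 23.3% of 32851 windows of all genes. Related words that overlap it were also searched on both strands. GGAAGT was in 32.1% of the members' windows and 19.7% of all windows, AGGAAGTG in 10.7% and 3.14%, and GAGGAAGT in 3.57% and 2.44%. GGGGAAGT and the extended PU.1 consensus were in none of the members' windows and in 1.24% and 0.0304% of all windows. A match is a string of letters and not a shown binding site.

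Windows of 3 members are printed 5′ to 3′ on the gene's strand (RefSeq, GRCm38.p6), with GAGGAA or its reverse complement in capitals. Trem2 is shown because its level was highest in culture 4, Ctss as the second most abundant member and one that was lower there, and Vav1 as the member whose window holds the longer word GAGGAAGT. They cover chr17:48346151-48346400 (plus strand), chr3:95526536-95526785 (plus strand) and chr17:57278850-57279099 (plus strand), and the word begins 40, 164 and 11 bases before the start.
Trem2: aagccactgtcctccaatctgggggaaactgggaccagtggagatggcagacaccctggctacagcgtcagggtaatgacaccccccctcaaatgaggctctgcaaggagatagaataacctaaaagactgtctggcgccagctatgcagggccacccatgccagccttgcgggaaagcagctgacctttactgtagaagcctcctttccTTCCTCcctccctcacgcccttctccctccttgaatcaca
Ctss: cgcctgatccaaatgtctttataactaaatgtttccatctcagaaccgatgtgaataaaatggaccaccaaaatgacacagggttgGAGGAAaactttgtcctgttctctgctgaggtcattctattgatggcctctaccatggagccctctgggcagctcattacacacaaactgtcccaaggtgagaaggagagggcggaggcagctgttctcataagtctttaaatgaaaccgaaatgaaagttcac
Vav1: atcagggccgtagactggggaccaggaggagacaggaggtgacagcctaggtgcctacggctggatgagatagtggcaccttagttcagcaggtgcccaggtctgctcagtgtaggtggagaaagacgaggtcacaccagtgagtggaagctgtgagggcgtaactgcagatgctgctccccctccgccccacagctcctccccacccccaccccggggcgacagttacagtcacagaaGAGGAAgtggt
The word lay close to the start in Vav1 and, on the opposite strand, in Trem2, and farther upstream in Ctss.

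The main difference between the cultures was in culture 4. Of the 28 members averaging 1 CPM or more, 26 had their lowest value in culture 4, against 35.2% of all such genes, and 24 were at least 20% lower there than the mean of the other 3 cultures, against 12.2%. For Unc93b1, counted among the 26, culture 4 (14.209 CPM) was nearly level with culture 1 (14.215 CPM). At 1.5-fold the count was 12 of 28 (5.74% of all genes), at 2-fold it was 2 of 28, Fcrls and Tmem119 (1.89%), and among the 16 members averaging 5 CPM or more 13 were at least 20% lower (9%). The 2 remaining members, Sall1 and Trem2, had their highest value in culture 4, as 47% of all genes did. The lowest value fell in culture 1 for 1 member, in culture 2 for 0 and in culture 3 for 1, against 21.1%, 18.5% and 25.2% of all genes. In 9 of the 28 members culture 4 stood apart as the low library by Dixon's criterion, against 6.42% of all genes with a low library apart, and in 1 as the high library, against 8.76%. The median log2 ratio of culture 4 to the mean of the others was -0.52 over the 28 members and 0.03 over all genes of that level. The 3 members not counted here, Cd48, Gpr34 and Siglech, had a mean CPM under 1. These ratios set 1 library against 3 of the same group, so that they have no test of a condition, and the members were chosen with earlier results of these data known.

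**Figure D2:**
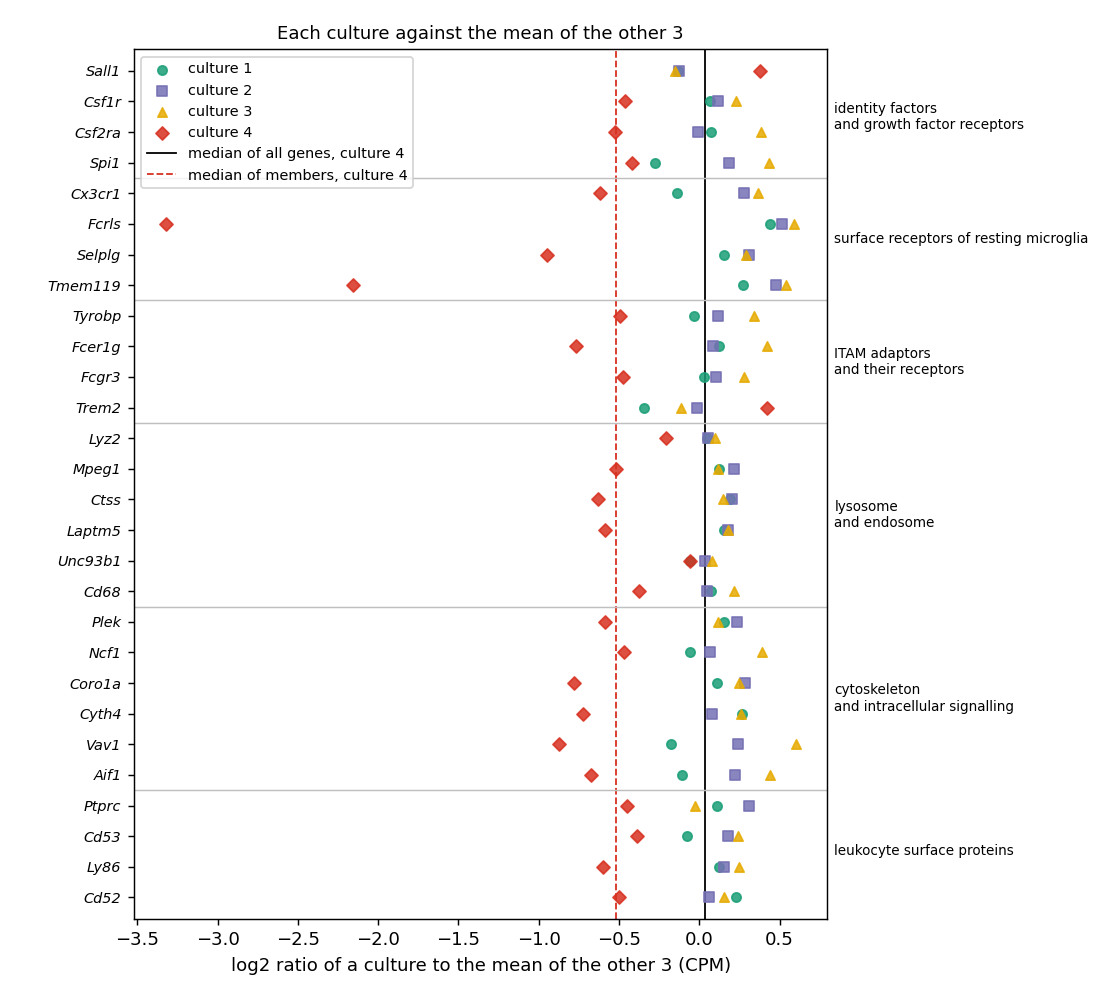
log2 ratio of each culture to the mean of the other 3 for the 28 members averaging 1 CPM or more; the solid line is the median of all genes in culture 4 (0.03) and the dashed line the median of the members in culture 4 (-0.52). Most culture 4 symbols lie in a narrow column near the dashed line, with Fcrls at -3.32, Tmem119 at -2.16, Trem2 at 0.42 and Sall1 at 0.38 away from it.

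Among identity factors and growth factor receptors, 3 of 4 members were at least 20% lower in culture 4, against 12.2% of all genes. Csf1r, the receptor for CSF1 and IL-34, had 31.3, 32.2, 34.0 and 23.5 CPM in cultures 1 to 4 (mean 30.2 ± 4.62, n = 4), with no overlap between culture 4 and the rest. Csf2ra, the ligand-binding chain of the GM-CSF receptor, had 9.62, 9.23, 11.2 and 6.98 CPM (mean 9.26 ± 1.75), again lowest in culture 4. Its counts were partly fractional. Spi1 had 2.60, 3.32, 3.75 and 2.41 CPM, so that culture 4 lay just under culture 1 and the values of cultures 1 to 3 were spread. The log2 ratios of these 3 genes in culture 4 were -0.47, -0.52 and -0.42.

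Sall1 (GeneID 58198; GRCm38.p6 chromosome 8, 89027242 to 89044162, minus strand) went the other way. It encodes a zinc finger repressor that is used as an identity factor of microglia in the brain and is also active in developing neural tissue. Its level was 91.1, 91.5, 90.1 and 118.2 CPM in cultures 1 to 4, a log2 ratio of 0.38 for culture 4, while cultures 1 to 3 lay close together. Sall1 had a mean of 97.7 ± 13.7 CPM (SD, n = 4), against 3.02 ± 0.63 CPM for Spi1. An antisense gene that overlaps it, Gm3134, had 25 to 33 counts. Which cells of the cultures held the Sall1 transcript was not tested.

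The surface receptors of resting microglia included Fcrls and Tmem119, which differed most between cultures among members averaging 1 CPM or more. All 4 members of this group averaging 1 CPM or more were lowest in culture 4 (35.2% of all genes), with a median log2 ratio of -1.55. Their values were unlike, at -3.32 for Fcrls, -2.16 for Tmem119, -0.95 for Selplg and -0.62 for Cx3cr1. Fcrls (GeneID 80891; chromosome 3, 87250736 to 87263765, minus strand), an Fc receptor-like protein used as a marker of resident microglia in mice, had 7.52, 7.81, 8.07 and 0.78 CPM, from 309, 313, 301 and 33 counts. Culture 4 was 10.0-fold below the pooled cultures 1 to 3, with a 95% interval of 7.07 to 14.6 (exact binomial, counting error only). Tmem119 (GeneID 231633; chromosome 5, 113793729 to 113800396, minus strand), a membrane protein that marks mature resident microglia, had 3.12, 3.44, 3.54 and 0.76 CPM, from 128, 138, 132 and 32 counts. It was 4.45-fold lower in culture 4, with an interval of 3.10 to 6.59. For both genes cultures 1 to 3 were nearly level and culture 4 alone was far below, which is reflected in their means ± SD of 6.04 ± 3.52 and 2.71 ± 1.32 CPM (n = 4).

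The other receptors of this group showed smaller differences. Selplg, the ligand of P-selectin on leukocytes, had 5.09, 5.49, 5.44 and 2.76 CPM (mean 4.69 ± 1.30), and was 1.93-fold lower in culture 4 (interval 1.58 to 2.37). Cx3cr1, the receptor for neuronal fractalkine, had 13.5, 16.7, 17.5 and 10.4 CPM (mean 14.5 ± 3.25), with culture 1 between culture 4 and the other two. Gpr34, a lysophosphatidylserine receptor, had only 35, 34, 33 and 23 counts (0.85, 0.85, 0.88 and 0.54 CPM, mean 0.78 ± 0.16). It lies within the span of Cask on the opposite strand, which had 7439 to 9058 counts. The library kit keeps strand, but whether counting used it was not given in the sources used here. Siglech, a sialic acid-binding lectin of microglia and plasmacytoid dendritic cells, had 1, 2.25, 0 and 0.25 counts, too few for a level. At 3 counts, the least taken as detectable here, the limit was 0.0708 to 0.0804 CPM.

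Among the ITAM adaptors and their receptors, 3 of 4 members were at least 20% lower in culture 4, against 12.2% of all genes. The remaining member, Trem2, had its highest value there, as 47% of all genes did. Tyrobp, which encodes the adaptor DAP12, had 10.8, 11.7, 13.1 and 8.43 CPM (mean 11.003 ± 1.95). Fcer1g, which encodes the Fc receptor gamma chain, had 8.76, 8.58, 10.2 and 5.38 CPM (mean 8.22 ± 2.02). Both were highest in culture 3 and lowest in culture 4, by log2 ratios of -0.49 and -0.77. Fcgr3, a low-affinity IgG receptor that signals through the gamma chain, had a mean of 3.61 ± 0.58 CPM (n = 4) and a log2 ratio of -0.47. Its counts were partly fractional, and it has close paralogues among the Fc receptor genes, so that its level is uncertain.

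Trem2 (GeneID 83433; chromosome 17, 48346401 to 48352276, plus strand), a lipid-sensing receptor that signals through DAP12, had 2.60, 3.12, 2.95 and 3.87 CPM (mean 3.14 ± 0.53), from 107, 125, 110 and 164 counts. Culture 4 was 1.34-fold above the pooled cultures 1 to 3, with an interval of 1.11 to 1.62, while its adaptor Tyrobp was 1.40-fold lower there (1.249 to 1.581). Receptor and adaptor thus differed in opposite directions between culture 4 and the rest.

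The lysosomal and endosomal members included the most abundant ones. All 6 were lowest in culture 4 (35.2% of all genes), but Unc93b1 only by 14.209 against 14.215 CPM in culture 1. At least 20% lower were 4 of 6 (12.2% of all genes), and the median log2 ratio was -0.45. Ctss, the microglial protease cathepsin S, had 38.1, 38.4, 37.3 and 24.5 CPM (mean 34.6 ± 6.73), the largest deviation of the group at -0.63. Mpeg1, the pore-forming protein perforin-2 of phagocytes, had 45.3, 47.6, 45.2 and 32.2 CPM (mean 42.6 ± 7.03), and the lysosomal membrane protein gene Laptm5 had a mean of 20.0 ± 3.65 CPM (n = 4). In all 3, cultures 1 to 3 lay close together and culture 4 was separate. Cd68, a lysosomal glycoprotein of macrophages, had a mean of 8.40 ± 1.08 CPM.

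Lyz2 and Unc93b1 were exceptions in size. Lyz2 had 112.5, 112.6, 115.2 and 98.3 CPM (mean 109.6 ± 7.70), a log2 ratio of -0.21. Unc93b1, which carries nucleic acid-sensing Toll-like receptors to endosomes, had 14.21, 14.95, 15.28 and 14.21 CPM, a log2 ratio of -0.06. It was 1.04-fold lower in culture 4, with an interval of 0.95 to 1.14 that included 1. The counts of both genes were partly fractional, and Lyz2 has a close paralogue, Lyz1. Unc93b1 had the smallest SD relative to its mean of all members, at 14.7 ± 0.54 CPM.

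All 6 members with roles in the cytoskeleton and in signalling were at least 20% lower in culture 4 (12.2% of all genes), with a median log2 ratio of -0.70. Coro1a, an actin regulator of leukocytes, had 7.27, 7.93, 7.77 and 4.46 CPM (mean 6.86 ± 1.62). Ncf1, the p47 subunit of the phagocyte NADPH oxidase, had 7.52, 8.03, 9.44 and 6.02 CPM (mean 7.75 ± 1.41), and Plek, the kinase C substrate pleckstrin, 11.4, 11.9, 11.2 and 7.67 CPM (mean 10.5 ± 1.94). In these 3 genes culture 4 was below every other culture. Vav1, the guanine nucleotide exchange factor of blood cells, had 2.65, 3.29, 3.91 and 1.79 CPM (mean 2.91 ± 0.91), with cultures 1 to 3 spread as well. Aif1, which encodes the microglial stain IBA1, had a mean of 1.98 ± 0.48 CPM and Cyth4, an ARF exchange factor, one of 4.81 ± 1.08 CPM (n = 4), with log2 ratios of -0.68 and -0.72.

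The leukocyte surface proteins were low and also lowest in culture 4. Cd52, a small glycosylated surface peptide, had 2.12, 1.95, 2.04 and 1.44 CPM (mean 1.89 ± 0.31). Ly86, the partner of the receptor homologue CD180, had 2.99, 3.04, 3.19 and 2.03 CPM (mean 2.81 ± 0.53). Cd53, a tetraspanin, had 3.55, 4.05, 4.18 and 3.00 CPM (mean 3.70 ± 0.54), the smallest deviation of the group at -0.39. Ptprc, the pan-leukocyte phosphatase CD45, had a mean of 4.33 ± 0.70 CPM (n = 4). Culture 4 was lowest in all 4 of these, as in 35.2% of all genes. Cd48, an adhesion protein of the SLAM family, had 32, 40, 28 and 12 counts (0.78, 1.00, 0.75 and 0.28 CPM, mean 0.70 ± 0.30). It was 2.98-fold lower in culture 4 with a wide interval of 1.63 to 5.96.

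Members were then set against Csf1r within each library, a ratio that does not depend on library size and that was chosen after the values were seen. Of the 27 other members averaging 1 CPM or more, 20 stayed in culture 4 within that fold (20% lower to 25% higher) of their mean ratio in cultures 1 to 3, against 20.6% of all genes. Per 100 Csf1r counts, Tyrobp had 34.6, 36.3, 38.5 and 35.8 counts in cultures 1 to 4, Fcgr3 11.7, 11.9, 12.3 and 11.9 counts, and Mpeg1 144.9, 148.0, 133.0 and 136.7 counts. These 3 ratios in culture 4 lay within the range of the other cultures, as they did for 9 of the 20 members. For 8 of the 20 the ratio in culture 4 was below that range, as for Ctss (104.2 against 109.9 to 121.7), Fcer1g (22.9 against 26.7 to 29.9) and Coro1a (19.0 against 22.9 to 24.7). For 3 it was above, as for Lyz2 (417.6 against 339.0 to 359.4). The share of all genes within, below or above that range was not taken, so these counts have no background to be read against.

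The 7 members outside that limit were the same with Tyrobp or Mpeg1 as the denominator. Both genes had log2 ratios in culture 4 (-0.49 and -0.52) close to that of Csf1r (-0.47), so this is no independent check. Per 100 Csf1r counts, Fcrls had 24.03, 24.26, 23.74 and 3.31 counts, and Tmem119 9.95, 10.7, 10.4 and 3.21 counts. Selplg and Vav1 were also lower, at 11.7 against 16.01 to 17.05 and at 7.62 against 8.48 to 11.5. The ratio was lower by that fold in 3.28% of all genes. Trem2, at 8.32, 9.69, 8.68 and 16.4 counts, Sall1, at 290.9, 284.5, 265.1 and 502.4 counts, and Unc93b1, at 45.4, 46.5, 45.0 and 60.4 counts, were higher. A higher ratio in culture 4 was the rule over the table, with 76.1% of all genes at least 25% higher, since Csf1r itself was lower there.

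**Figure D3:**
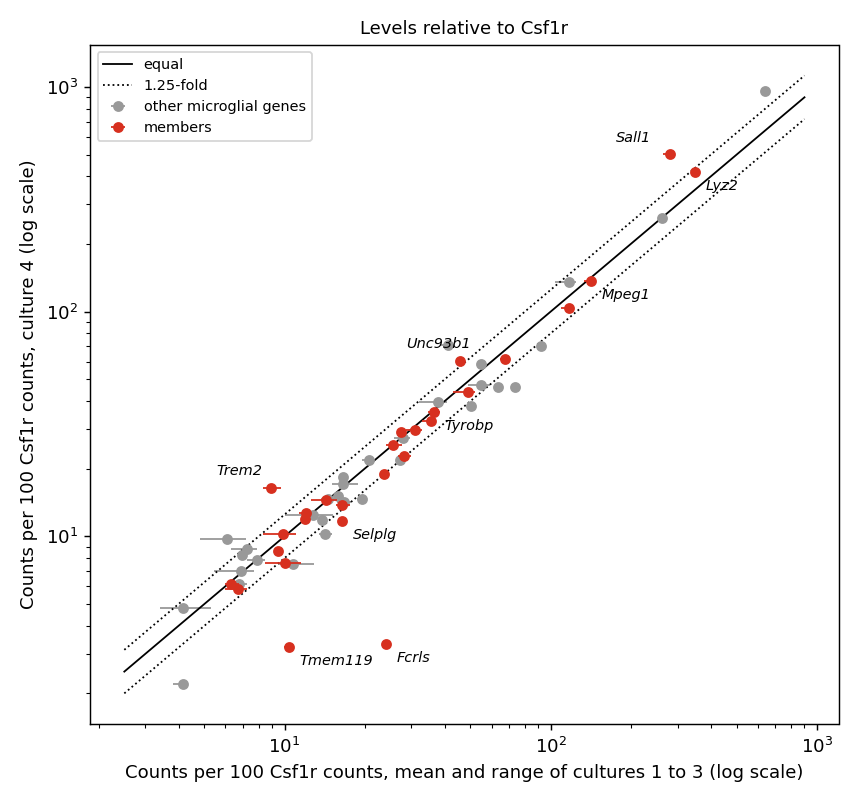
Counts per 100 Csf1r counts in culture 4 (vertical, log scale) against the mean of cultures 1 to 3 (horizontal, log scale; bars give the range of the 3), for members (red) and a second list of microglial genes (grey). Most points lie between the dotted lines (20% lower and 25% higher); Fcrls and Tmem119 lie far below and Trem2, Sall1 and Unc93b1 above.

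A second list of 35 microglial genes outside the members gave similar values. Of its 32 genes averaging 1 CPM or more, 28 were lowest in culture 4 (35.2% of all genes) and 24 were at least 20% lower (12.2%). Their median log2 ratio was -0.48. The complement genes C1qa, C1qb and C1qc had 16.5, 8.97 and 10.9 CPM in culture 4 against 29.3 to 31.4, 15.8 to 16.6 and 19.9 to 21.2 CPM in the others. The purinergic receptor gene P2ry12, a marker of resting microglia, had 3.45 CPM in culture 4 against 4.61 to 4.84 CPM. P2ry12 thus stayed at the Csf1r ratio, at 14.6 per 100 Csf1r counts in culture 4 against 13.7 to 15.5. The receptor gene P2ry13 and the secreted protein gene Olfml3 were lower per Csf1r count, at 2.21 against 3.80 to 4.35 and at 46.1 against 72.6 to 74.7. In all, 8 of these 32 genes were at least 20% lower per Csf1r count (3.28% of all genes), 3 were at least 25% higher (76.1%) and 21 lay between (20.6%).

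Markers of lymphocytes, granulocytes and mast cells were near 0, whereas those of monocytes and border macrophages were mixed. Of 12 lymphocyte genes none reached 1 CPM in every library, against 32.2% of all genes and 58.1% of protein-coding genes. Their sum was 0.97 to 1.70 CPM, most of it from Lck. Of 10 granulocyte and mast cell genes 6 had 3 counts or fewer in total, among them Ly6g, Elane and Camp at 0, and the sum was 0.21 to 0.46 CPM. Of 6 monocyte genes, Ccr2, Ly6c2 and Plac8 had mean levels of 0.04, 0.09 and 0.13 CPM, and Chil3 had no count. The other two, Fn1 and Vcan, which encode matrix proteins also made by glia, had 766.9 ± 60.5 and 54.5 ± 7.33 CPM (n = 4), with Fn1 lowest and Vcan highest in culture 4 (log2 ratios of -0.20 and 0.35). Of 10 border macrophage genes, 4 reached 1 CPM in all libraries, against 32.2% of all genes and 58.1% of protein-coding genes. The transcription factor gene Maf had 18.9 CPM in culture 4 against 21.8 to 22.8 CPM, and the scavenger receptor gene Stab1 had 13.03 against 18.2 to 19.9 CPM. F13a1, a clotting factor subunit of macrophages, had 1.49 against 1.24 to 1.66 CPM, within the range of the others. Mrc1 (the mannose receptor) had 0.66 to 0.87 CPM in cultures 1 to 3 and 0.22 CPM in culture 4, while Cd163 and Lyve1 had 3 and 2 counts in all. Cbr2 had 3.85 to 4.50 CPM in cultures 1 to 3 and 1.40 CPM in culture 4.

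Genes of other lists also differed in culture 4. Among genes averaging 1 CPM or more, the median log2 ratio was -1.16 for 2 endothelial and -0.42 for 5 mural genes. The 2 endothelial genes were unlike, with Flt1 at -2.05 and Kdr at -0.27, and the others of that list averaged under 1 CPM. The median was -0.38 for 11 genes of signals that act on microglia, -0.08 for 6 neuronal and -0.07 for 6 oligodendrocyte lineage genes. A lower median was thus not particular to the microglial lists. The fibroblast list had a sum of 511.8 CPM in culture 4 and 1334 to 1420 CPM in the others, with Col1a1 at 72.4 against 570.1 to 622.6 CPM. Pdgfra, which is also a marker of oligodendrocyte precursors, went the other way, at 20.5 against 12.03 to 13.46 CPM. Of the astrocyte list 5 of 12 genes were at least 20% lower (12.2% of all genes), with Gfap at 779.7 against 1498 to 1555 CPM. Another 5 had their highest value in culture 4 (47% of all genes), among them Slc1a2 at 368.0 against 285.2 to 311.0 CPM. The median log2 ratio of the list was -0.09. The part of these differences in the members' values was not tested.

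**Figure D4:**
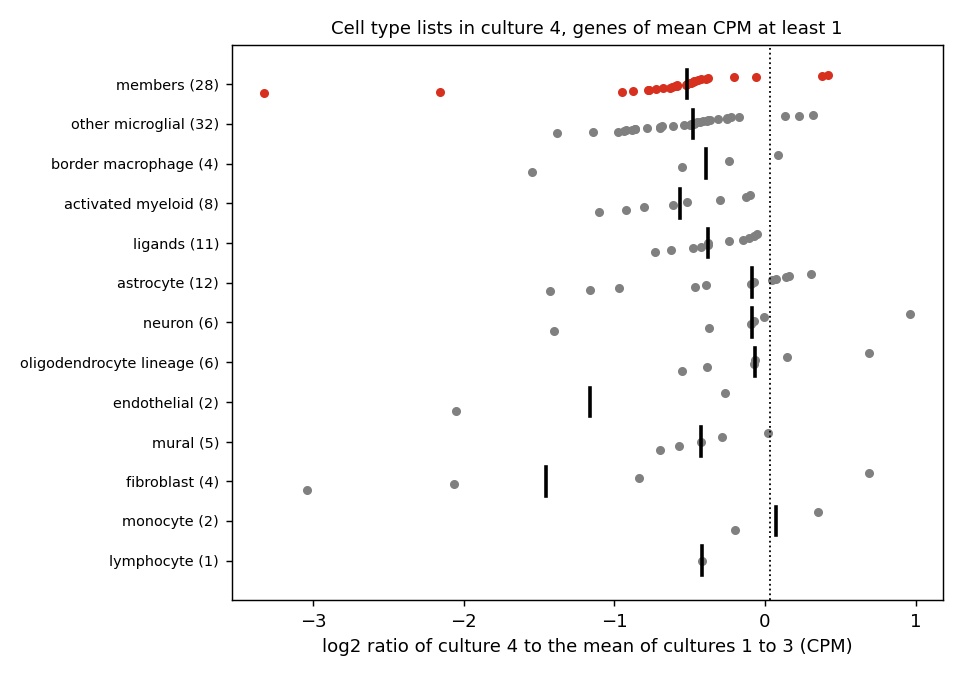
log2 ratio of culture 4 to the mean of cultures 1 to 3 for each gene of the members and of the other lists, for genes averaging 1 CPM or more (number in parentheses); the black bar is the list's median and the dotted line the median of all genes. The members (-0.52) and the other microglial genes (-0.48) have similar medians, and the fibroblast (-1.45) and endothelial (-1.16, from 2 unlike genes) lists have lower ones. The mural list has a median of -0.42.

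The spread between cultures was also taken from edgeR's biological coefficient of variation (BCV), fitted on 17105 genes. The median BCV of the 30 members that passed its filter was 0.164, against 0.0944 over all genes, and 21 of 30 lay above the trend for their level, as 23.1% of all genes did. The widest were Fcrls (0.631), Tmem119 (0.459) and Cd48 (0.333), and the narrowest Unc93b1 (0.0759) and Lyz2 (0.0807). Without culture 4 the median of the members was 0.0293, against 0.0256 over all genes. The members' median was thus close to that of all genes once culture 4 was left out.

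**Figure D5:**
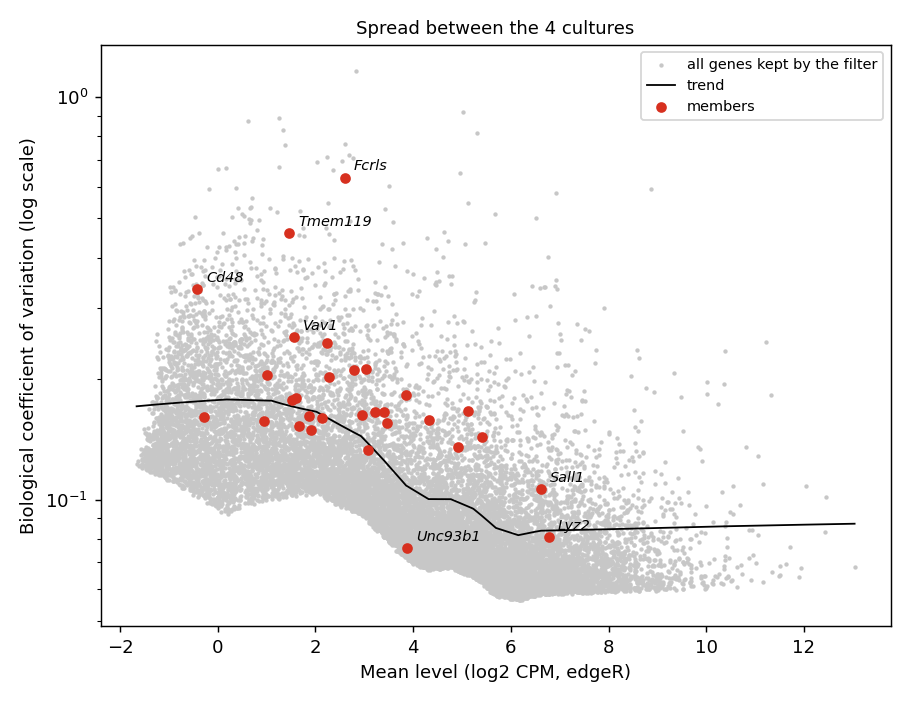
BCV (log scale) against mean level (log2 CPM) for all genes kept by edgeR's filter (grey), with the trend (line) and the members (red). Fcrls and Tmem119 stand far above the trend, while Lyz2 and Unc93b1 lie below it.

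Members also varied among cultures 1 to 3, where their median BCV was 0.0293. Among these 3 cultures, 18 of 28 members had their lowest value in culture 1, against 34.3% of all genes, and 5 each had it in culture 2 (29.8%) and culture 3 (35.9%). At least 20% lower in culture 1 than the mean of cultures 2 and 3 were 4 members, against 1.66% of all genes. In cultures 2 and 3 the count was 0, against 0.959% and 1.38%. Against the mean of all other cultures, culture 4 included, 10 of 28 members were at least 25% higher in culture 3 (3% of all genes), 2 in culture 2 (2.39%) and 1 in culture 1 (1.97%). Since 24 of the 28 were at least 20% lower in culture 4, these counts in part restate that difference. The 4 members lower in culture 1 were Spi1, Cx3cr1, Vav1 and Aif1. Culture 1 had 2.60 against 3.32 and 3.75 CPM for Spi1 (107, 133 and 140 counts). It had 1.87 against 2.22 and 2.47 CPM for Aif1 (77, 89 and 92 counts). No interval was taken for these differences, and the shares of all genes were not matched for level.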

How the data were processed

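The deposited table gives estimated counts per RefSeq gene. The authors' values are in part not whole numbers (31.7% of values above 0), and 9 of the 31 members had such counts. Per the submitters' processing notes, bcl2fastq 2.20.0.422, cutadapt 1.17, STAR 2.7.2b and featureCounts 1.6.4 of Subread were used with GRCm38.p6. Roles, settings and strand option were not given in the sources used here, and RefSeq symbols are as deposited. The deposited lengths, in another column (combined exon length in bases), were used for RPKM. Here CPM were computed from deposited counts and raw library sums (Python 3.11.15, pandas 2.3.3). BCV came from edgeR 4.0.16 on rounded counts (TMM, intercept-only design, default filter, no test), checked on simulated data; DESeq2 1.42.0 gave alternatives. Intervals are exact binomial (95%, SciPy 1.17.1) and, like the floor of 3 counts, cover counting error only, since PCR copies cannot be told from separate molecules. The members and lists were chosen with earlier results of these data known. All members are named; values by culture were given for the 3 of highest RPKM in each role, those of largest and smallest deviation in culture 4, and those under 1 CPM in a library.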

Additional observations from a re-analysis of the deposited data

Results flagged for a closer look

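In 11 members the highest or the lowest of the 4 libraries stood apart from the other 3 (Dixon's ratio of the gap to the range, above its 95% critical value for 4 samples), and in each of them that library was culture 4. Culture 4 was the low library for Laptm5 (0.961), Fcrls (0.925), Ctss (0.924), Gpr34 (0.892), Selplg (0.853), Tmem119 (0.848), Mpeg1 (0.846), Plek (0.842), Lyz2 (0.838) and Ly86 (0.831), and the high library for Sall1 (0.95). Chance alone would mark about 5% of groups of 4. Over all genes averaging 1 CPM or more the lowest library stood apart in 6.42% and the highest in 8.76%, against 9 and 1 of the 28 members of that level.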

How the results depend on the processing

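No paired analysis was possible because the series has 1 group. With a minimum of 5 CPM in every library, 14 members counted as expressed in place of 26. The share of all genes that reach this higher minimum was not taken. The summed level of 473.2 CPM became 310.0 CPM with only genes of whole counts, 363.5 CPM without the most abundant member, Lyz2, and 265.8 CPM without Lyz2 and Sall1, which is by construction. The 24 members at least 20% lower in culture 4 became 12 at 1.5-fold (5.74% of all genes) and 13 among the 16 with a mean CPM of at least 5. With TMM or DESeq2 size factors, the same 24 members passed, and the median of all genes in culture 4 moved from 0.03 to 0.01 and 0.00257. Leaving out 1 library at a time gave 26 to 28 expressed members, a sum of 462.9 to 493.5 CPM, 23 to 24 lower members, a median log2 ratio of -0.55 to -0.52, 4 to 5 members lower and 3 higher per Csf1r count, a median BCV of 0.0293 to 0.191 and 5 to 16 neighbouring pairs that did not overlap. The low BCV and the 16 pairs are those without culture 4. Spi1 was no longer at least 20% lower without culture 3. No member past that fold changed direction in any setting tried. The settings for the order of levels, for the sum without Lyz2 and Sall1 and for the ratio to Csf1r were chosen after seeing the data. With 4 libraries and 33 counts or fewer in culture 4, the values of Fcrls, Tmem119, Gpr34 and Cd48 there are limited by depth.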

Other observations

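Genes for signals that act on microglia were expressed in the same cultures. Of 12 such genes 11 reached 1 CPM in every library, against 32.2% of all genes and 58.1% of protein-coding genes. Csf1 and Il34, which encode the 2 ligands of the CSF1 receptor, had 297.5 ± 23.6 and 18.4 ± 0.37 CPM (SD, n = 4), and Csf2, the ligand of the receptor of which Csf2ra is a chain, had 2 counts in all. Csf1 was at 262.3 CPM in culture 4 and 305.4 to 311.8 CPM in the others, and Il34 at 17.9 against 18.4 to 18.7 CPM. Cx3cl1, the fractalkine that binds CX3CR1, had 35.9 CPM in culture 4 against 53.4 to 56.7 CPM. Tgfb1, Tgfb2 and Tgfb3 had 4.52 ± 1.05, 92.3 ± 4.43 and 58.9 ± 8.13 CPM. Of the TREM2 ligands Apoe and Clu, Apoe had 726.9 CPM in culture 4 against 994.5 to 1037 CPM and Clu 558.9 against 722.5 to 731.2 CPM.

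Of 15 genes associated with activated myeloid cells, 8 averaged 1 CPM or more. All 8 were lowest in culture 4, against 35.2% of all genes of that level, with a median log2 ratio of -0.56. The lectin receptor gene Clec7a had 1.70 CPM in culture 4 against 3.22 to 4.02 CPM, and Gpnmb 14.8 against 25.1 to 27.1 CPM. Spp1 (100.03 against 105.4 to 108.6 CPM) and Axl (227.1 against 240.1 to 259.7 CPM) differed less. Itgax and Cst7 had mean levels of 0.10 and 0.28 CPM. Several of these genes, such as Axl and Spp1, are also expressed outside the myeloid lineage.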
